A study of Mus musculus with 12 samples.

Results

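The comparison described here sets LPS-matured dendritic cells (DCs) of old mice that had been fed Lactobacillus plantarum (Old-LP) against those of old mice that had not (Old). Its members were chosen by the sample labels alone, as the arrays labelled Old with LP as agent and those labelled Old with no agent, which gave 6 of the 12 arrays of the study, 3 for each group. DCs were grown from the bone marrow of female C57BL/6 mice with GM-CSF and IL-4, the loosely adherent cells were collected, and every culture of the study was then stimulated with LPS at 1 µg/ml for 24 h. The labels gave the Old and Old-LP mice an age of 24 months, and L. plantarum was given by oral gavage. The other 6 arrays, which entered the fit but not the comparison, held DCs of untreated mice of 2 months (Young) and of mice of 2 months that had received a cocktail of antibiotics (Young-Abx). The study describes its sets as independent and each as a pool of mice, while the labels did not state whether the arrays of a group held separate cultures. If they did not, the p-values measure the spread between these arrays, which may be technical. Cultures of this kind hold macrophage-like cells, granulocytes and their precursors beside DCs, and in RNA of such a mixture fewer cells of a type and less RNA per cell cannot be told apart.

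DCs take up microbes and dead cells, carry their peptides on MHC class II molecules to the lymph node and set whether the T cells they meet become effector or regulatory cells. LPS, a component of the outer membrane of gram-negative bacteria, is sensed through Tlr4 and drives their maturation through NF-κB. The balance between inflammatory cytokines, co-stimulatory ligands and inhibitory molecules made by the matured cell is what separates an immunogenic from a tolerogenic DC. Lactobacilli are lactic acid bacteria of the gut, and the question of the comparison was whether feeding them to aged animals changes the gene expression of DCs grown from their marrow.

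Expression was measured on single-colour microarrays, whose probes report the intensity of labelled RNA. In what follows a level is a log2 intensity after quantile normalization, a difference is Old-LP minus Old on the same scale, and a gene was read at its probe with the highest mean level. The arrays of each group carried the letters A, B and C. Arrays A and B of all groups lay on 1 slide, whereas the C arrays of Old and Old-LP lay on another and those of Young and Young-Abx on yet another. The letter C thus joins arrays of different slides. The share of spots well above background was 61.2% to 66.4% on the A and B arrays, but 37.3% on Old C and 41.8% on Old-LP C. Across 18836 probes well above background on all 6 arrays, Old A and Old B differed with an SD of 0.274 and Old-LP A and Old-LP B with an SD of 0.181, whereas C differed from A with an SD of 1.29 in Old and of 1.00 in Old-LP. The C arrays therefore stood apart, and the letter was kept as a block in the fit and the pairs of arrays are shown apart throughout. Over the same probes, the difference between Old-LP and Old in pair A correlated with that in pair B at r = 0.807, with that in pair C at r = 0.149, and pair B with pair C at r = 0.259, where pairs A and B share a slide.

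Of 56605 probes, 935 (1.65%) were past both thresholds, that is an adjusted p no higher than 0.05 and a difference of 0.5 or more in size, with 443 higher and 492 lower in Old-LP DCs. Read by gene, 286 of 24232 (1.18%) were higher and 291 (1.2%) were lower, and in 479 of these 577 genes the 3 Old-LP values did not overlap the 3 Old values. All 935 probes differed in the same direction in pairs A, B and C. Both counts describe arrays that the call itself used, which favours such probes, so they are no independent evidence. With the A and B arrays alone, 1190 genes were higher (4.91%) and 1111 lower (4.58%). Of the 4163 probes called on A and B alone, 2835 (68.2%) had the same direction in pair C, which that fit did not use, against 53.2% of all probes. Without the letter as a block 197 probes were called, 68 higher and 129 lower. With the 6 Old and Old-LP arrays alone limma called 0 (smallest adjusted p = 0.374). In that fit 3863 probes had an unadjusted p of at most 0.05 together with a difference of 0.5 or more in size. The count thus rests on a spread estimated from all 12 arrays.

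Only called genes whose groups did not overlap were ranked for the largest rises and falls. By the processed intensity, the largest rises in Old-LP DCs were those of the small GTPase Rab6b, of the chemokines Cxcl9 and Ccl1, of the matricellular protein Ccn3 and of the signalling scaffold Akap12. Cxcl9, an interferon-γ-induced ligand of the receptor Cxcr3, had levels of 2.79, 2.56 and 3.12 in Old A, B and C and of 7.43, 7.47 and 9.15 in Old-LP. It was not well above background on any Old array and was on every Old-LP array, and was at least 11-fold higher there (adjusted p = 0.00192, measured means 2.82 and 8.02). Ccl1, the ligand of Ccr8, went from 6.03, 5.66 and 6.26 to 10.96, 10.83 and 10.59, a difference of 4.81 ± 0.298 (SE, adjusted p = 0.00156) or 28.1-fold. All Old-LP values of both chemokines lay far above all Old values, and the 3 pairs gave differences of 4.64 or more for Cxcl9 and of 4.33 or more for Ccl1. Rab6b, which serves transport at the Golgi, had Old levels of 3.47, 1.78 and 2.02, none well above background, and Old-LP levels of 7.81, 7.79 and 7.78, at least 9.3-fold higher (adjusted p = 0.00226). The other Rab6b probe differed by -0.21 and was not called, so the rise was measured by 1 of its 2 probes. The size of such differences depended on the background correction. With normexp correction in place of the processed intensity Rab6b differed by 2.16 and Cxcl9 by 2.34, less than their bounds here, while Ccl1 differed by 3.84 and Ccn3 by 2.76, so the order of the largest rises changed. The deposited log2 table gave 2.22, 2.45, 3.87 and 2.83 for these 4 genes.

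Ccn3 had levels of 6.07, 5.80 and 5.07 in Old and of 9.37, 9.36 and 10.15 in Old-LP, a difference of 3.98 ± 0.41 (adjusted p = 0.00509). Sucnr1, the receptor for succinate, rose from 5.60, 5.01 and 5.91 to 8.20, 8.30 and 8.75, by 2.91 ± 0.222 (adjusted p = 0.00228). Gdf3, a ligand of the TGF-β superfamily, rose from 5.79, 5.72 and 4.80 to 8.79, 8.79 and 7.60, by 2.96 ± 0.188 (adjusted p = 0.00156), while its other probe differed by 0.53 and was not called. In each of these the groups did not overlap, which the ranking required, and, as for Ccl1, the gene was well above background on 2 of the 3 Old arrays. The other large rises were those of Akap12 (3.71), the tight junction protein Cgn (3.63, or at least 3.7-fold), the transcription cofactor Lmo1 (3.55), the ADP-ribosyltransferase Art2b (3.47, or at least 3.16-fold), the microbial sensor Tlr11 (3.10), the peptidylarginine deiminase Padi4 (2.99), the glutaminyl cyclase Qpct (2.84), the ribosomal protein-like gene Rps4l (2.83) and Cd5l (2.81), a protein secreted by macrophages. For Lmo1, Art2b and Tlr11 the Old C readings of 1.81, 1.65 and 1.87 lay below 6.65, the lowest signal well above background on that array, and are no measured levels, whereas for Padi4 it was at 10.05 against 7.61 and 7.67 on Old A and B. With normexp correction Lmo1 differed by 1.45, Art2b by 0.90, Tlr11 by 0.81, Cgn by 1.31, Akap12 by 1.82, Gdf3 by 1.74 and Sucnr1 by 1.79. The other Cgn probe differed by 0.88 and was not called.

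**Figure D1:**
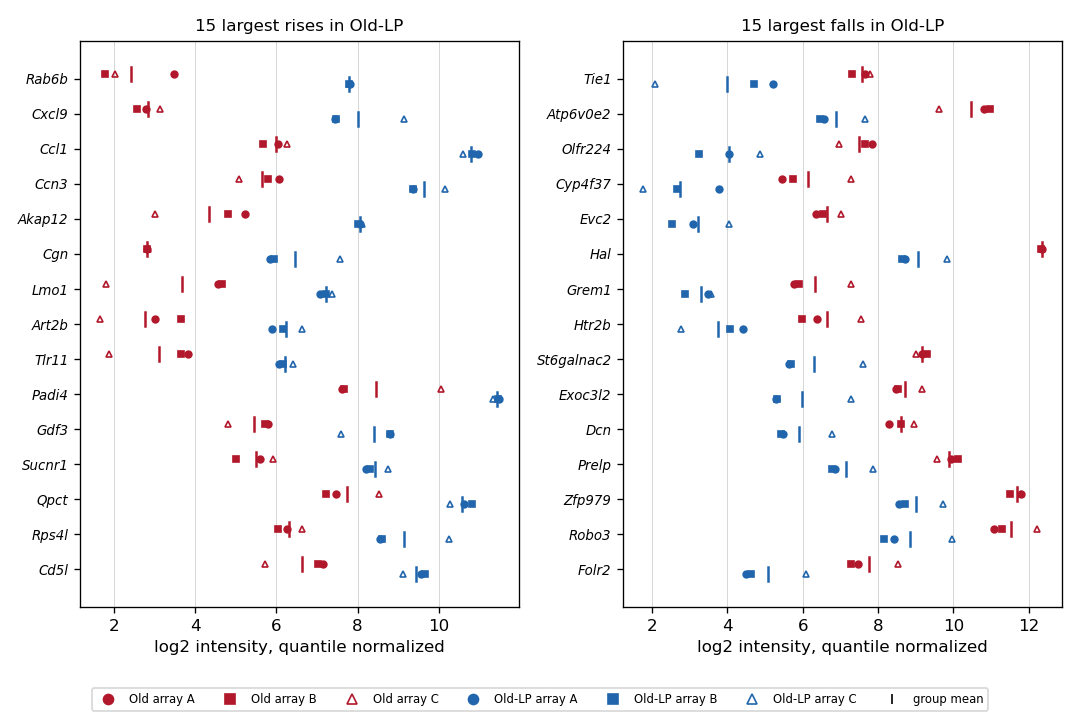
Levels of the 15 genes that rose most (left) and the 15 that fell most (right) in Old-LP against Old DCs. The x axis is the log2 intensity after quantile normalization, points are single arrays (red Old, blue Old-LP, open triangles the C arrays) and bars are group means. The Old-LP values of Cxcl9 lie between 7.43 and 9.15, all above the Old values, a separation that was required of every gene shown.

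Among the falls, Hal, the enzyme that removes ammonia from histidine, had Old levels of 12.34, 12.33 and 12.35 and Old-LP levels of 8.72, 8.63 and 9.83, a difference of -3.28 ± 0.314 (adjusted p = 0.00394) or 9.69-fold lower. Atp6v0e2, a subunit of the vacuolar proton pump, went from 10.81, 10.97 and 9.62 to 6.57, 6.46 and 7.65 (-3.57 ± 0.453, adjusted p = 0.0109). Tie1, a receptor tyrosine kinase of endothelium, went from 7.66, 7.30 and 7.79 to 5.20, 4.71 and 2.09 (-3.59 ± 0.654, adjusted p = 0.0428). The groups did not overlap in any of these, which the ranking required. The size for Tie1 came mostly from pair C, with -5.70 there against -2.47 and -2.59 in pairs A and B. Folr2, a folate receptor of macrophages, fell from 7.47, 7.28 and 8.52 to 4.49, 4.63 and 6.10 (-2.68 ± 0.233, adjusted p = 0.00289). Among the largest falls were also the small leucine-rich proteoglycans Dcn (-2.72) and Prelp (-2.71) and the BMP antagonist Grem1 (adjusted p = 0.00289), which was well above background on 1 of the 3 Old-LP arrays. The rest were Olfr224 (-3.44), Cyp4f37 (-3.41), Evc2 (-3.41, or at least 5.81-fold), the serotonin receptor Htr2b (-2.88), the sialyltransferase St6galnac2 (-2.86), Exoc3l2 (-2.75), Zfp979 (-2.70) and the guidance receptor Robo3 (-2.69). Olfr224 and Cyp4f37 were well above background on 1 Old-LP array and Tie1 and Htr2b on 2. With normexp correction Hal (-3.12) and Atp6v0e2 (-2.81) differed more than Tie1 (-1.53), Olfr224 (-1.63), Cyp4f37 (-1.13), Evc2 (-1.07), Grem1 (-1.22), Htr2b (-1.17), Dcn (-1.78) and Folr2 (-1.55). The other probe of Evc2 differed by -0.25 and that of Exoc3l2 by 0.03, and neither was called.

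Genes of megakaryocytes and platelets were lower in Old-LP DCs. Of 23 measured markers of the megakaryocyte and erythroid lineages, 11 fell (1.2% of all genes did) and 0 rose. Their median difference was -1.30, against 0.01 over all genes. The platelet receptor for von Willebrand factor is a complex of glycoproteins, of which Gp1bb fell from 8.80, 9.27 and 8.81 to 6.22, 6.40 and 7.05 (-2.41 ± 0.259, adjusted p = 0.00566). Gp5 of that complex fell from 10.23, 10.54 and 10.89 to 7.83, 7.68 and 9.02 (-2.38 ± 0.201, adjusted p = 0.00275), and Gp9 from 11.83, 11.88 and 11.11 to 9.28, 9.19 and 10.38 (-1.99 ± 0.368, adjusted p = 0.0446). In all 3 genes every Old-LP array lay below every Old array, and Old-LP C was the highest of its group. Gp1bb has another probe, which differed by 0.43 and was not called. The fibrinogen receptor chains Itga2b (-2.11) and Itgb3 (-1.33), the ligand Vwf (-1.45), the erythropoietin receptor Epor (-1.90), the GATA1 cofactor Zfpm1 (-1.90), the platelet receptor Treml1 (-1.66) and the platelet chemokine Ppbp (-1.30) were further called members.

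The globin genes of the same list did not fall. The globin gene Hbb-bt had levels of 4.31, 3.48 and 9.81 in Old and of 8.45, 8.40 and 8.98 in Old-LP, with Old C far above the other Old arrays (2.74, adjusted p = 0.378), and Hba-a1 differed by 0.42 (adjusted p = 0.472). Pf4, a chemokine stored by platelets, differed by -0.26 (adjusted p = 0.495), and Gata1, the factor that drives both lineages, by -1.48 (adjusted p = 0.052). Further platelet genes outside the list were named after their values were seen. Among them Gp1ba fell by 2.09, the P-selectin gene Selp by 2.50, the thromboxane receptor Tbxa2r by 2.30, the lipoxygenase Alox12 by 2.06, the ATP-gated channel P2rx1 by 1.68, the platelet α-granule protein Mmrn1 by 2.15 and Mpig6b by 2.07, each past both thresholds and with groups that did not overlap. Mpig6b differed by -1.15 with normexp correction, and its other probe differed by -0.33 and was not called. The mean level over the 23 markers was 9.49, 9.48 and 9.57 on the Old arrays and 8.40, 8.38 and 8.86 on the Old-LP arrays, beside 8.35 to 8.75 in Young and 9.45 to 9.71 in Young-Abx. With no block, 3 of the 23 were called, all lower. With the A and B arrays alone 13 fell and 2 rose, against 4.58% and 4.91% of all genes.

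**Figure D2:**
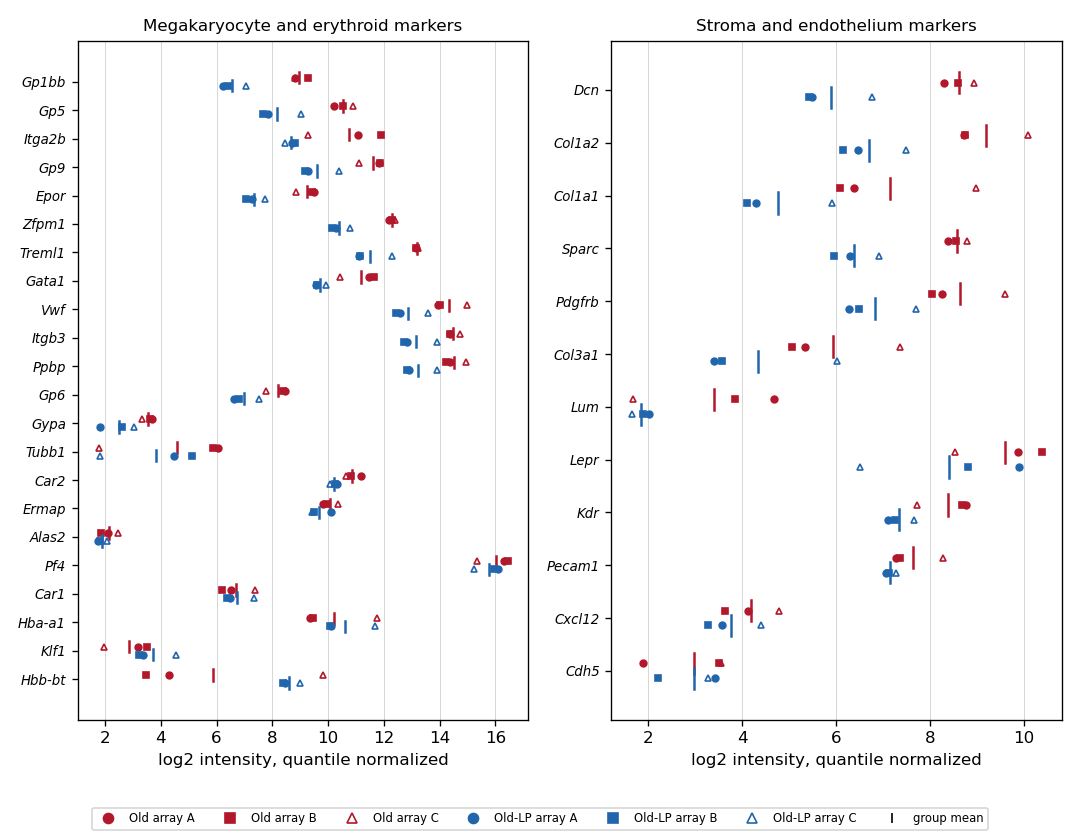
Levels of measured megakaryocyte and erythroid markers, 1 left out, (left) and stroma and endothelium markers (right), ordered by the difference. The x axis is the log2 intensity after quantile normalization, points are single arrays (red Old, blue Old-LP, open triangles the C arrays) and bars are group means. The blue points of Gp1bb, Gp5 and Gp9 lie to the left of all red ones, whereas those of Pf4 and Car1 lie among them.

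GATA factors act at platelet and red cell genes through the letters AGATAA, read on either strand. Promoters of RefSeq, build GRCm38.p6, cover 250 bases before and 50 after a gene's start, and the entry listed first was used. Of 17 list members with an entry, 5 (29.4%) held AGATAA, against 11.4% of 27025 promoters of all genes, and 2 of the 8 called members with an entry did, which are given here for the 150 bases before the start with the motif in capitals.
Gp5, chr16:30310782-30310931, minus strand: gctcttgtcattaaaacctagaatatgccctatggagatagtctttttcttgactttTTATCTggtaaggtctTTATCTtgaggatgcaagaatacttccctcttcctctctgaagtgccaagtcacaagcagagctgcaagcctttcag
Epor, chr9:21963577-21963726, minus strand: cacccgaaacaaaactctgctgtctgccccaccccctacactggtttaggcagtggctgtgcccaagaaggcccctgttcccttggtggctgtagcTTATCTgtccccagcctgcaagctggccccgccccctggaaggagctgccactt
The Gp5 window held the motif on the reverse strand at 93 and 77 bases before the start, and the Epor window at 54 bases before it. Gp1bb, Gp9, Itga2b, Zfpm1, Treml1 and Ppbp held none in their 300 bases.

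Markers of stroma and endothelium were lower too. Of 12 measured, 4 fell (against 1.2% of all genes) and 0 rose, 11 had a difference below 0, and the median was -1.57. Col1a2, a chain of type I collagen, had levels of 8.73, 8.74 and 10.09 in Old and of 6.46, 6.14 and 7.50 in Old-LP, a difference of -2.49 ± 0.169 (adjusted p = 0.00185) or 5.61-fold lower. Dcn, the proteoglycan decorin, went from 8.30, 8.61 and 8.95 to 5.48, 5.43 and 6.77 (-2.72 ± 0.211, adjusted p = 0.00228). Sparc, a matricellular protein of mesenchyme, went from 8.39, 8.56 and 8.79 to 6.30, 5.95 and 6.91 (-2.19 ± 0.211, adjusted p = 0.004), and its other probe by -2.02. These genes fell in each pair, with no overlap between groups. The PDGF receptor Pdgfrb fell by 1.81, while Col1a1 (-2.39, adjusted p = 0.131), Col3a1 (-1.59, adjusted p = 0.0912) and the endothelial gene Kdr (-1.06, adjusted p = 0.268) did not pass the test. Cdh5, the cadherin of endothelium, was not well above background on any of the 6 arrays. Further genes of fibroblasts were named after their values were seen, of which Ccn2 fell by 2.65, Mgp by 2.16 and Fbln2 by 1.87 (-1.51, -1.16 and -1.24 with normexp correction). The mean level over the 12 markers was 6.84, 6.88 and 7.36 in Old and 5.44, 5.19 and 5.97 in Old-LP, beside 4.63 to 5.06 in Young.

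Genes of mitosis were higher in Old-LP DCs. Of 51 measured genes of mitosis and the spindle, 13 rose (1.18% of all genes did) and 0 fell, 50 had a difference above 0, and the median was 0.96. With the A and B arrays alone, 43 rose, as did 4.91% of all genes. The called genes were the kinesins Kif23, Kif20a, Kif15 and Kif11, which move spindle microtubules, the cytokinesis factor Ect2, the checkpoint kinase Bub1, the spindle protein Nusap1, the survivin gene Birc5, the transcription factor Foxm1, the kinetochore genes Spc24 and Cenpk, the cohesin protector Sgo1 and the topoisomerase Top2a. Ect2 had levels of 5.85, 5.41 and 7.00 in Old and of 7.37, 7.45 and 8.49 in Old-LP, a difference of 1.68 ± 0.178 (adjusted p = 0.00561) or 3.21-fold. Top2a rose from 9.31, 9.32 and 10.17 to 10.74, 10.82 and 10.90, by 1.22 (adjusted p = 0.0171), and Birc5 from 9.99, 9.93 and 11.31 to 11.36, 11.48 and 12.49, by 1.37 (adjusted p = 0.0364). In Ect2 and Top2a every Old-LP value lay above every Old value, and in Birc5 the Old-LP A value exceeded Old C by a small margin. Kif23 rose (adjusted p = 0.0286), by 1.94 and 2.62 in pairs A and B, and neither reading of pair C was well above background. With normexp correction Kif23 differed by 1.05, Kif20a by 1.04, Ect2 by 1.03 and Bub1 by 1.02. Mki67, a widely used marker of cycling cells, differed by 0.39 (adjusted p = 0.369).

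The gain was mainly that of the A and B arrays. The median over the 51 genes was 1.13 and 1.29 in pairs A and B and 0.33 in pair C, where the Old array had the highest mean of its group. The cyclin Ccnb2 had Old levels of 8.74, 8.87 and 11.43 and Old-LP levels of 10.12, 10.18 and 11.56, and the kinase Aurka of 8.69, 8.79 and 11.64 and of 9.82, 9.98 and 11.61, so that neither passed the test over all arrays (adjusted p = 0.168 and 0.368). The mean level over the list was 7.50, 7.41 and 8.17 on the Old arrays, 8.59, 8.63 and 8.85 on the Old-LP arrays and 8.63 to 8.80 on the Young arrays. With no block, 1 of the 51 was called. Markers of neutrophils and granulocyte precursors moved with the list in pairs A and B, since their mean level was 8.98, 8.91 and 10.70 in Old and 10.10, 10.06 and 10.03 in Old-LP, and their part in the result was not tested.

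**Figure D3:**
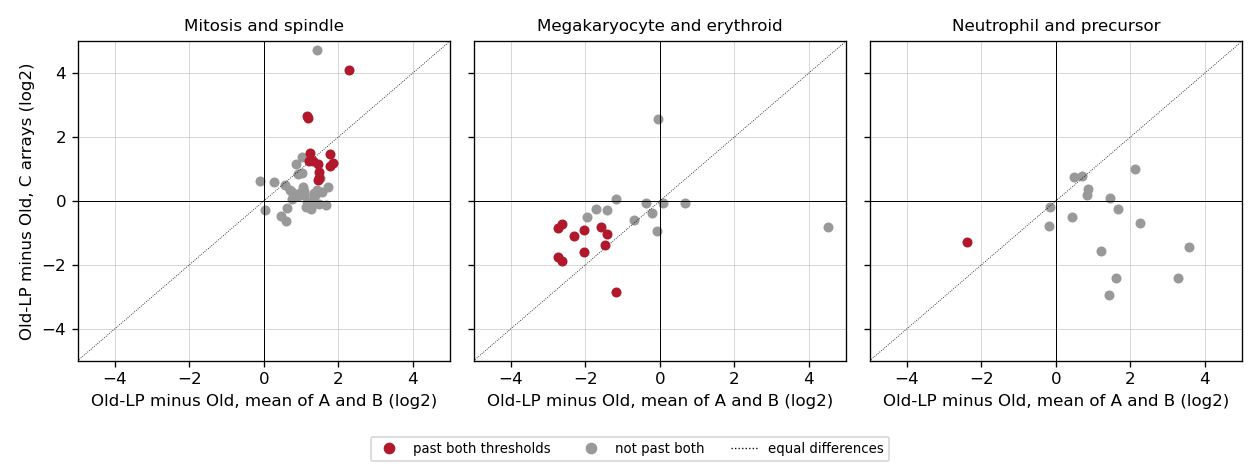
Differences between Old-LP and Old in the C arrays (y axis) against the mean difference of the A and B arrays (x axis), both on the log2 scale, for the genes of 3 lists. Each point is a gene, red where past both thresholds, and the dotted line marks equal differences. Mitosis genes have a median of 1.13 and 1.29 in pairs A and B and 0.33 in pair C, and neutrophil genes of 1.05 and 1.27 against -0.49.

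Promoters of mitotic genes are known for a cell cycle element with the core letters TTTGAA and for CCAAT boxes. Of the 42 list members with a promoter entry, 29 (69%) held TTTGAA on either strand, against 18.1% of all promoters, and 32 (76.2%) held CCAAT, against 37.9%. Of the 10 called members with an entry, 5 held TTTGAA and 7 held CCAAT. The 150 bases before the start of 3 called genes whose windows hold both are given here, with both motifs, or their reverse complements, in capitals.
Ect2, chr3:27153879-27154028, minus strand: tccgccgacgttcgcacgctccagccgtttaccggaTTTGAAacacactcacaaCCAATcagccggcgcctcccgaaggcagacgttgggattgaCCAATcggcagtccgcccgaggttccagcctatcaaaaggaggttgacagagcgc
Kif11, chr19:37376232-37376381, plus strand: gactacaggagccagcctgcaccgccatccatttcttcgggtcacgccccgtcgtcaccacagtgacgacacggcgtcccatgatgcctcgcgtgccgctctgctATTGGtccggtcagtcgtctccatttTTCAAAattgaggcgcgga
Top2a, chr11:99024190-99024339, minus strand: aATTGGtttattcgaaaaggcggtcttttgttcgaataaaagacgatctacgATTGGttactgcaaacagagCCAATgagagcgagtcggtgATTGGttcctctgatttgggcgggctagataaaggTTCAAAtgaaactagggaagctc
The Top2a window held 4 CCAAT boxes, that of Ect2 held 2 and that of Kif11 held 1. A match of letters is a description of the window only.

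Genes of DNA replication held 2 called members. Of 41 measured, 2 rose (against 1.18% of all genes) and 0 fell, 39 had a difference above 0, and the median was 0.45, with 0.46, 0.51 and 0.52 in pairs A, B and C. Rrm2, a subunit of the enzyme that makes deoxynucleotides, had levels of 9.30, 9.04 and 11.20 in Old and of 10.55, 10.55 and 11.91 in Old-LP (1.16 ± 0.192, adjusted p = 0.0293), and the groups overlapped although each pair rose. Of 13 measured replication-dependent histone genes, which are near-identical copies and may share signal, 2 rose, H1f5 by 1.70 and H2ac4 by 1.42, and the list had its largest median in pair C (1.48, against 0.59 and 0.44). Of 27 genes of homologous recombination and repair 26 had a difference above 0, with a median of 0.56, but limma called 0 of them (13 at an unadjusted p of at most 0.05), and 10 rose with the A and B arrays alone (4.91% of all genes did). Plk4 and Plk2 are a reading of symbols that the study prints as Pik4 and Pik2. Among 8 cell cycle and repair genes that the study itself had picked on these arrays, so that their direction is no independent evidence, Plk4, the kinase of centriole duplication, rose by 1.00 (adjusted p = 0.0385; 0.61 with normexp correction) and Parp3 by 0.83 (adjusted p = 0.0213). The other probes of Plk4 differed by 0.06 and 0.26 and those of Parp3 by 0.42 and 0.48, none called. Plk4 was not called with the A and B arrays alone (adjusted p = 0.0808 in limma). The values of the others were 0.67 for Cdk2, 0.70 for Parp4, 0.57 for Plk2, 0.48 for Cdc20, 0.40 for Parp11 and -0.21 for Parp1, none past the test. The proto-oncogene Myc, named after its value was seen, rose by 0.96 (adjusted p = 0.0462).

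Chemokine genes moved in both directions. Of 29 measured, 3 rose and 2 fell (1.18% and 1.2% of all genes did), with a median of -0.02. Beside Cxcl9 and Ccl1, Ccl17, a DC product that attracts Ccr4-bearing T cells, rose from 13.80, 13.74 and 14.61 to 15.39, 15.33 and 15.35 (1.30 ± 0.192, adjusted p = 0.0189). Ccl8, a ligand made by monocytes and macrophages, fell from 12.60, 12.57 and 12.46 to 10.63, 10.54 and 11.02 (-1.81 ± 0.147, adjusted p = 0.00245), and Ppbp is the other fall. For both Ccl17 and Ccl8 the groups did not overlap. Cxcl10, another Cxcr3 ligand, had Old levels of 7.73, 7.65 and 9.16 and Old-LP levels of 9.81, 9.89 and 8.73, so that pairs A and B and pair C ran in opposite directions (1.30, adjusted p = 0.425). Cxcl13 had levels of 6.46 and 6.41 in Old A and B and readings of 1.76 and 2.22 in Old-LP A and B, but 1.73 and 1.80 in pair C (-2.94, adjusted p = 0.233). The readings of Old-LP and of pair C lay below the lowest signal well above background on their arrays and are no measured levels.

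Of 38 genes of the interferon response, 3 rose (1.18% of all genes did) and 0 fell, 30 had a difference above 0, and the median was 0.36. Gbp5, a guanylate-binding protein of cell-autonomous defence, went from 8.86, 8.81 and 10.77 to 10.27, 10.33 and 11.65 (1.27 ± 0.161, adjusted p = 0.0109), and Gbp3 from 10.79, 10.65 and 9.33 to 12.22, 12.08 and 10.60 (1.38 ± 0.194, adjusted p = 0.0158). Cmpk2, a nucleotide kinase, went from 7.19, 7.00 and 9.03 to 8.36, 8.38 and 10.02 (1.18 ± 0.162, adjusted p = 0.0144). The 3 genes rose in each pair, although the group ranges overlapped. Isg15 (0.12) and Irf7 (-0.26) did not pass the test. The palindrome TTCNNNGAA is known from promoters of interferon-γ-induced genes, and 7 of the 28 list members with a promoter entry held it (25%), against 8.47% of all promoters. Of the 3 called genes Gbp5 did, and its window is shown with the motif within the 150 bases before the start, at 52 bases before it, in capitals.
Gbp5, chr3:142496784-142496933, plus strand: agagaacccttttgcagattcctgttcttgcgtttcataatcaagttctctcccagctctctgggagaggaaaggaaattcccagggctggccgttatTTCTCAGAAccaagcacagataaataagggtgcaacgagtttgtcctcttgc

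The labelled cell type was checked against 20 DC markers. The integrin Itgax, which encodes CD11c, had levels of 14.09 to 14.80 in Old and of 14.36 to 14.38 in Old-LP, the MHC class II chaperone Cd74 was at 16.86 to 17.15 on all 6 arrays, and the migration receptor Ccr7 at 15.67 to 16.24. Cd209a was not well above background on any array, and Zbtb46, a factor of conventional DCs, was on 3 Old and 2 Old-LP arrays, with levels of 5.61 to 7.19. Of the list, 1 rose, Ccl17, and 0 fell, with a median of 0.08. Of 26 genes of surface molecules and migration 2 rose (1.18% of all genes did). The monocyte receptor Ccr2 rose in each pair, from 10.39, 10.07 and 7.98 to 12.17, 12.23 and 10.01 (1.99 ± 0.193, adjusted p = 0.004), and Pdcd1lg2, which encodes the inhibitory ligand PD-L2, from 10.53, 10.67 and 10.68 to 12.53, 12.49 and 11.77 (1.64 ± 0.222, adjusted p = 0.0138). The Pdcd1lg2 groups lay apart, whereas those of Ccr2 overlapped between pairs. The co-stimulatory ligands differed little, with 0.40 for Cd86 (adjusted p = 0.198), 0.07 for Cd80 (adjusted p = 0.926) and 0.03 for Cd40 (adjusted p = 0.961), and H2-Aa, a chain of MHC class II, by 1.30 (adjusted p = 0.102) with Old C at 14.99 against 13.31 and 13.15. Clec9a, a receptor for dead cells on cross-presenting DCs, fell by 0.99 (adjusted p = 0.0124), and the lectin Clec10a and the inhibitory ligand Cd200 rose by 1.27 and 1.30 (adjusted p = 0.047 and 0.0277), these 3 named after their values were seen.

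The study picked its tolerogenic genes on these arrays, so their direction is no independent evidence. Its list names Tgfb without a member, while its discussion names Tgfb1 as lower in Old than in Young DCs. All measured Tgfb genes were entered here, so Tgfb2 is not a pick of the study. Of the 10 genes so listed, 2 rose (1.18% of all genes did) and 0 fell. The checkpoint receptor Lag3 rose from 6.26, 6.14 and 6.41 to 7.70, 7.45 and 7.43 (1.25 ± 0.178, adjusted p = 0.016), and Tgfb2 from 5.72, 5.67 and 6.62 to 7.09, 7.07 and 7.18 (1.11 ± 0.211, adjusted p = 0.0486), both without overlap and both well above background on 2 of the 3 Old arrays (0.67 and 0.63 with normexp correction). Aldh1a2, which makes retinoic acid, had levels of 11.65, 11.64 and 13.43 in Old and of 13.11, 12.95 and 13.25 in Old-LP, so pairs A and B gave 1.46 and 1.30 and pair C differed by -0.18 (0.86, adjusted p = 0.266). The rest of the list gave 0.63 for Tgfb3, 0.57 for Cd38, 0.48 for the tryptophan-degrading enzyme Ido1, 0.37 for Irf4, 0.37 for Irf8, 0.08 for Nos2 and -0.29 for Tgfb1, none past the test.

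Retinoic acid genes held called members of both directions. Of 18 measured genes of retinoic acid and vitamin D, 2 rose and 1 fell (1.18% and 1.2% of all genes did). Aldh1a1, which makes retinoic acid, fell from 11.53, 11.44 and 12.03 to 8.85, 8.60 and 9.75, a difference of -2.60 ± 0.172 (adjusted p = 0.00185) or 6.04-fold lower. The receptor Rarb, itself a target of retinoic acid, rose from 5.58, 5.29 and 6.08 to 7.27, 7.39 and 7.96 (1.89 ± 0.176, adjusted p = 0.00356; 0.97 with normexp correction), and Cyp26b1, which degrades retinoic acid, from 6.36, 6.47 and 7.12 to 8.05, 7.98 and 9.11 (1.73 ± 0.141, adjusted p = 0.00249). None of the 3 overlapped between groups, and each pair moved the same way, as in every called probe. The other probes of Rarb differed by 0.50 and 1.31 and were not called. Rarb was well above background on 2 of the 3 Old arrays.

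No cytokine gene passed the test. Of 27 measured limma called 0 (4 at an unadjusted p of at most 0.05), with a median of -0.06. Il12a, the p35 subunit of IL-12, had levels of 7.77, 7.62 and 6.88 in Old and of 5.28, 5.45 and 5.90 in Old-LP, a difference of -1.88 ± 0.381 (adjusted p = 0.0628), and was lower with the A and B arrays alone. Il6 had Old levels of 10.45, 10.15 and 12.89 and Old-LP levels of 11.35, 11.44 and 11.47, and Tnf of 9.10, 9.20 and 10.55 and of 9.61, 9.58 and 9.64, so for both the Old C array alone was above the Old-LP values. With the A and B arrays alone Il6 was higher (1.10, adjusted p = 0.0151 in limma). In that fit 3 of the 27 genes rose and 2 fell, against 4.91% and 4.58% of all genes. Il10 was at 4.89, 4.21 and 9.05 in Old and at 4.45, 4.41 and 6.86 in Old-LP (-0.81, adjusted p = 0.726). Differences of Il1b (-0.35), Il12b (0.35) and Il23a (0.35) did not pass, and Il23a was not well above background on any of the 6 arrays. Of 23 genes of NF-κB subunits, kinases and inhibitors limma called 0 (3 at an unadjusted p of at most 0.05), also with the A and B arrays alone, with a median of 0.11, and Rela differed by -0.03. Among 19 genes that also had qRT-PCR assays, Pdcd1lg2 was the only one called, and Cd274 (0.20), Btla (0.17), Arg1 (0.01), Slc2a1 (0.28) and Aldh2 (-0.32) did not pass.

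Of 20 genes of microbial sensing, 1 fell (1.2% of all genes did) and 0 rose, with a median of 0.00. Clec4e, a lectin receptor for mycobacterial and fungal glycolipids, fell from 11.85, 11.77 and 11.81 to 10.99, 11.07 and 10.62 (-0.91 ± 0.136, adjusted p = 0.0196). The LPS receptor Tlr4 had readings of 9.70, 9.79 and 4.06 in Old and of 9.77, 9.77 and 6.60 in Old-LP, which puts both C arrays far below the others and leaves pairs A and B with 0.07 and -0.02. The Old C reading lay below 6.65, the lowest signal well above background on that array, and is no measured level. Its co-receptors Cd14 (-0.52, adjusted p = 0.161) and Ly96 (-0.69, adjusted p = 0.557) and the adaptors Myd88 (0.03) and Ticam1 (0.07) did not pass. Nor did Tlr1 (0.46), Tlr2 (-0.02), Tlr3 (0.82), Tlr5 (-0.32), Tlr6 (0.31), Tlr7 (0.18), Tlr8 (-0.51), Tlr9 (-0.30), Nod1 (0.22), Nod2 (0.50), Nlrp3 (-0.48), Nlrc4 (-0.09), Clec7a (-0.32) or Clec4n (0.07).

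Lists of metabolism and stress held few called genes. Over all genes 1.18% rose and 1.2% fell, or 4.91% and 4.58% with the A and B arrays alone. Of 26 genes of glycolysis and glucose uptake 1 rose, the pyruvate dehydrogenase kinase Pdk1 (0.87, adjusted p = 0.0206), whose other probes ranged from -0.51 to 1.77. Of 23 genes of cholesterol synthesis and uptake 2 rose, Sc5d (0.89) and Idi1 (0.88). Limma called 0 of 33 genes of oxidative phosphorylation (median 0.09, 1 at an unadjusted p of at most 0.05) and 0 of 26 of the tricarboxylic acid cycle and fatty acid oxidation (median 0.03, 2 at an unadjusted p), also with the A and B arrays alone. The unfolded protein response (22 genes, median -0.15) and the Nrf2 response (17 genes, median -0.28) held 0 called genes in limma over all arrays, 6 each at an unadjusted p of at most 0.05, and 5 lower genes each with the A and B arrays alone. Of 26 genes of complement and scavenger receptors 2 rose, among them the IgG receptor Fcgr1 by 0.98 (adjusted p = 0.0442). Of 20 genes of senescence and growth arrest 2 rose and 1 fell. Glb1, the lysosomal β-galactosidase, rose by 1.15, and the cell cycle inhibitor Cdkn2b fell by 0.74 (adjusted p = 0.0496), while its other probe differed by 0.51.

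Markers of other leukocytes differed between pairs. The 17 markers of neutrophils and their precursors had medians of 1.05 and 1.27 in pairs A and B but of -0.49 in pair C, the 10 of eosinophils of 1.49 and 1.35 against -0.83, the 15 of mast cells and basophils of 0.66 and 0.81 against -0.32, and the 12 of B and plasma cells of 0.76 and 0.69 against -0.74. In the eosinophil granule gene Prg2 the Old levels were 8.29, 8.08 and 12.36 and the Old-LP levels 10.39, 10.34 and 10.78, and in the neutrophil granule gene Ltf they were 4.59, 4.52 and 10.65 and 7.81, 7.84 and 8.23. In both genes the Old-LP arrays lay close together, while Old C was the highest and Old A and B the lowest of the 6. Over all arrays, Siglecf of the eosinophil list rose by 1.45, and Ms4a2 and Il4 of the mast cell list by 1.00 and 0.87. The antimicrobial peptide gene Camp fell by 2.03 and the antibody joining chain Jchain by 0.99. Of 17 macrophage and monocyte markers Vcan (1.63, or 0.91 with normexp correction) and Fcgr1 rose, with a median of 0.07. The other Vcan probes differed by 0.16 and 0.38 and were not called.

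**Figure D4:**
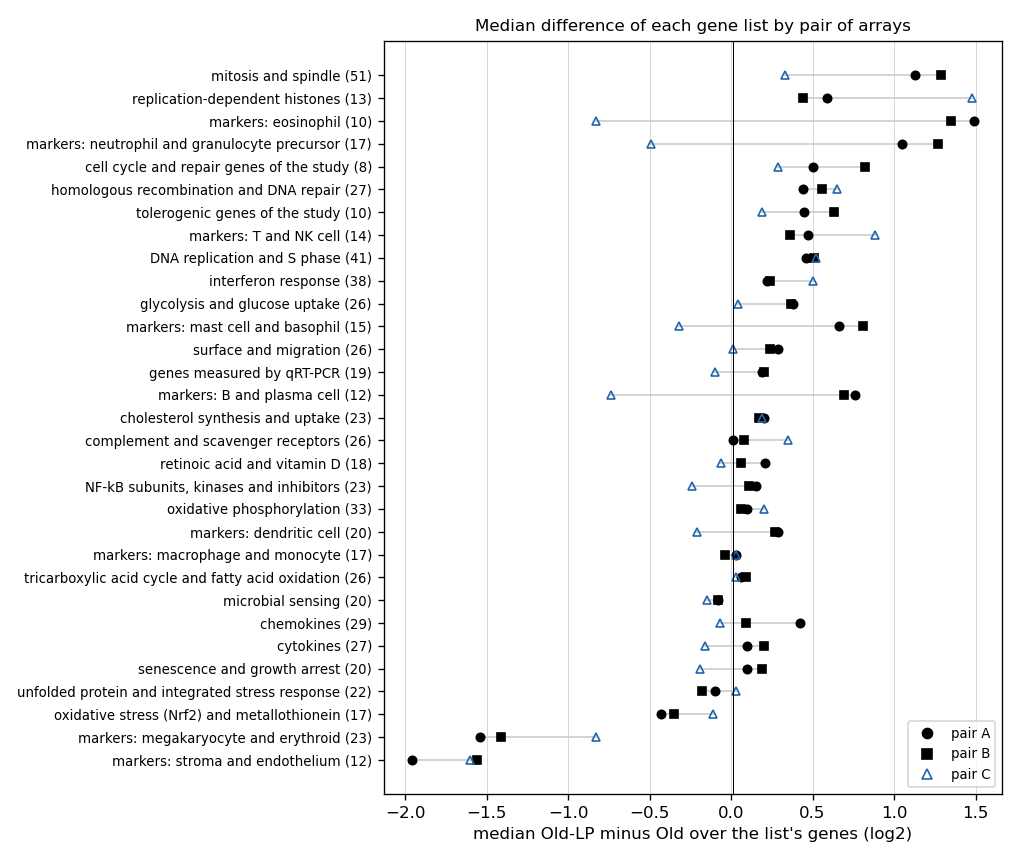
Median difference between Old-LP and Old over each gene list (number of measured genes in brackets) in pairs A, B and C. The x axis is a log2 difference and the vertical line marks the median of all genes, 0.01. The eosinophil list lies at 1.49 and 1.35 in pairs A and B and at -0.83 in pair C, whereas stroma and endothelium lie between -1.96 and -1.56 in all pairs.

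The lymphocyte genes named here, granzymes and Klra genes included, were chosen after their values were seen. Of 10 measured granzymes 3 rose and 1 fell, with a median of -0.55, and with the A and B arrays alone 3 rose and 4 fell. The shares over all genes were 1.18% and 1.2%, or 4.91% and 4.58% with the A and B arrays alone. Gzmc rose from 12.13, 12.10 and 12.09 to 14.23, 14.09 and 14.48 (2.16 ± 0.235, adjusted p = 0.00597) and Gzmb from 11.33, 11.19 and 12.70 to 13.54, 13.61 and 13.97 (1.97 ± 0.252, adjusted p = 0.0114). Gzma rose by 0.79, whereas Gzmk fell by 2.42 (adjusted p = 0.0178; -1.10 with normexp correction). The values of Gzmc, Gzmb and Gzmk did not overlap between groups, although Gzmk was well above background on only 2 arrays of each. The IL-2 receptor chain Il2rb rose by 1.67, the costimulatory receptor Tnfrsf18 by 1.51, and the transcription factor Ikzf2 by 1.78, each in all 3 pairs. Of 11 Klra genes, which encode inhibitory and activating receptors of natural killer cells, 6 rose and 0 fell, though these genes are close copies whose signal cannot be assigned with certainty. The T and NK cell markers are given beside them. Their mean level over 14 genes was 9.33, 9.36 and 8.81 in Old and 9.54, 9.47 and 9.72 in Old-LP. Of them Cd3e was at 10.54, 10.46 and 10.16 and at 11.32, 11.19 and 11.19 (0.84, adjusted p = 0.257), Cd3d differed by 1.47 (adjusted p = 0.186) and Foxp3 by -0.99 (adjusted p = 0.313), Gzma was the only one called, and their part in the result was not tested.

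Levels in Young DCs are given beside these for orientation, and no overlap between comparisons was computed because the comparison of Old-LP with Young shares the Old-LP arrays. Cxcl9 had a mean of 8.27 ± 0.93 (SD, n = 3) in Young and of 8.02 in Old-LP, Ccl1 of 11.03 ± 0.19 and 10.80, and Gp5 of 8.01 and 8.18. Old-LP minus Young was -0.26 for Cxcl9, -0.23 for Ccl1 and 0.17 for Gp5, none past the test. Other genes lay between Old and Young, such as Hal, with means of 12.34 in Old, 9.06 in Old-LP and 6.55 in Young, and Atp6v0e2, with 10.47, 6.89 and 3.91. Col1a2 had means of 9.19, 6.70 and 5.44 and Dcn of 8.62, 5.90 and 4.32 in the same order. For these 4 genes the level in Old-LP was above that in Young by 2.51, 2.98, 1.26 and 1.57, but no adjusted p of that difference was at or below 0.05 (0.671 for Hal, 1.00 for Atp6v0e2 and 0.742 for Col1a2 and Dcn).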

How the data were processed

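RNA of LPS-stimulated DCs was hybridised to 12 single-colour Agilent mouse arrays. The deposited scanner files hold the intensity of each spot as the authors obtained it from Agilent Feature Extraction (12.1.1.1 in the file headers, 10.5 in the submitters' processing notes), with background already subtracted. A deposited table of log2 values made by the authors served as an alternative. The study describes quantile normalization with limma, but the exact steps behind this table are not given in the sources used here. Control spots were left out and 1068 outlier readings of 59305 spots were set to missing. Processed intensities were taken to log2, quantile normalized and averaged over spots, which gave 56605 probes, of which 35405 carried a name that matched 24232 genes of RefSeq. No spot was saturated, and the small number of arrays limits the precision.

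Groups were taken from the labels. A linear model with 4 group means and the replicate letter as a block was fitted to all 12 arrays with limma 3.58.1 in R 4.3.3, so that the groups shared 1 estimate of the spread. A probe was called at a p no higher than 0.05 after Benjamini-Hochberg adjustment together with a difference of 0.5 or more in size, and every p in the report comes from this fit unless another is named. The letters come from the sample titles. Arrays of the same letter deviated together from their group means (r = 0.415 to 0.711 over pairs of groups). Since C stood apart from A and B, this r does not show that A belongs with A or B with B. The pairs therefore rest on the letters of the titles. The procedure was tested on simulated data in which all arrays had the same noise. That test does not show how the fit handles C arrays that stand apart.

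Named were the 15 genes that rose most and the 15 that fell most among 362 called genes (groups not overlapping, above background on all arrays of 1 group or both, no predicted gene models), up to 4 called genes in each direction of each of 31 lists, all members of the short lists of the study, and others stated as chosen after their values were seen. The gene lists and the comparison were chosen with earlier results of these data known. Of 654 listed genes 17 had no probe. Where a group was not well above background on any array, "at least" compares the brighter group's mean with the floor of each dim array. Alternatives covered the block, slides, arrays, background correction, scaling, filters, array weights and each array left out. Promoter sequences are from RefSeq, build GRCm38.p6. A few called genes are counted in their lists but not reported here by name.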

Additional observations from a re-analysis of the deposited data

How the results depend on the processing

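The count of 935 probes (443 higher, 492 lower) depended on the arrays and the block. No replicate block gave 197 (68 and 129), the 6 Old and Old-LP arrays alone 0 (0 and 0) in limma with 3863 at an unadjusted p, and an unadjusted p 5909 (3196 and 2713). Counts were larger with slide as a block (1860, as 992 and 868), A and B arrays only (4163, as 2158 and 2005), array quality weights (4644, as 2463 and 2181), normexp background correction (1517, with 804 higher), the deposited log2 table (1600, as 827 and 773) and probes well above background (1739, as 948 and 791). Chosen after seeing the data were the A and B arrays without a block (4663, as 2461 and 2202) and with bright probes only (4687, as 2614 and 2073). Leaving out 1 array gave 197 to 1748 probes, 72 to 932 higher and 125 to 816 lower. The count without Old C was 1748. It was 279 without Old A, 247 without Old B, 227 without Old-LP A and 197 without Old-LP B, and without the A or B array of Young or Young-Abx it lay between 462 and 494. A shift by the 75th percentile moved the median of all differences by -0.12 and gave 954 probes. The difference was over 1.5 times smaller in 32 of the 100 named genes with a call with normexp and in 29 with the deposited table. All called probes had the same direction in pairs A, B and C, and a change of the block left the difference itself unchanged. Of the 100, 0 changed direction under these settings, which is therefore no independent evidence. Their calls were lost in 66 with no replicate block, in 100 with the 6 arrays alone, in 7 with the percentile shift, in 3 with the A and B arrays only, and in 11 (without Old C) to 66 (without Old-LP B) when 1 array was left out. The causes were not tested. The difference in pair C had an SD of 1.33 over all probes and of 0.764 over bright ones.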
